A study of Mus musculus with 7 samples.

Results

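The genes described here are 10 heat shock proteins and co-chaperones, chosen by symbol: Hspa1a, Hspa1b, Hspa8, Hsph1, Dnajb1, Dnaja1, Hsp90aa1, Hsp90ab1, Hspd1 and Hspe1. Each probe set that the platform annotation assigns to 1 of these symbols alone was taken, which gave 23 probe sets for 9 of the 10 genes, out of 18194 genes named in this way. Hsp90ab1 was not analysed here. All 9 genes were among the 8203 genes tested, which reached a log2 value of at least 5 on at least 2 arrays.

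OT-I cells, the CD8 T cells of a receptor-transgenic mouse specific for an ovalbumin peptide, were profiled on 7 Affymetrix arrays. Naive (CD44lo) OT-I cells from Ly5.1 mice were labelled with the division dye CFSE and transferred into C57BL/6 hosts of 4 kinds, then sorted as CD8+ Ly5.1+ cells by their CFSE level. The RIP-OVAhi hosts carry ovalbumin under the rat insulin promoter and served as a model of deletional tolerance, the OCS/LPS hosts received ovalbumin-coated splenocytes with lipopolysaccharide as a model of immunity, and the Rag hosts were Rag-/- mice, in which transferred T cells divide because lymphocytes are lacking. Naive control cells stayed undivided in B6 hosts without the antigen. The naive, RIP-OVAhi and OCS/LPS groups had 2 arrays each at 60 h after transfer, and the Rag group had 1 array at 5 days. Cells in the 3 divided groups had divided at least 2 times. A pool of 10 mice supplied each RNA sample, except for RIP-OVAhi, where it took 20 mice. RIP-OVAhi cells came from sacral and pancreatic lymph nodes and all others from spleen, so tissue and group cannot be told apart for RIP-OVAhi. Every pool went through 2-cycle amplification from 100 ng of RNA.

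The HSP70 proteins bind unfolded stretches of other proteins and release them in cycles driven by ATP. J proteins such as Dnajb1 and Dnaja1 bring them clients and stimulate the ATPase, and HSP110 proteins such as Hsph1 exchange the nucleotide. Many clients pass on to HSP90, which completes the folding of kinases and receptors, while Hspd1 and Hspe1 form the folding chamber of mitochondria. Some of these genes are made at all times in growing cells. Others, above all Hspa1a and Hspa1b, are kept low and are induced within minutes by heat and other protein damage through the factor HSF1, which binds repeated GAA and TTC units.

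RefSeq promoter sequence (build GRCm38.p6) was at hand for 7 of the 10 genes and was read over the 250 bases before each annotated start. The Hspa1a sequence is shown because this gene and Hspa1b, its neighbour on chromosome 17, differed most between the arrays. Capitals mark a 2-unit heat shock element, GAANNTTC or TTCNNGAA. The Hspa1a window is chr17:34972157-34972406, on the minus strand.

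Hspa1a: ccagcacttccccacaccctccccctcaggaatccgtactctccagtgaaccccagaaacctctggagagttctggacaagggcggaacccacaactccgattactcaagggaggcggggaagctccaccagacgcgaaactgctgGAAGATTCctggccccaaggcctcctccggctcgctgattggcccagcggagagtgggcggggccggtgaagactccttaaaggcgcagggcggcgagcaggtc

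The Hspa1b window, chr17:34959239-34959488 on the minus strand, matched it at 247 of 250 bases (98.8%). The 3 differing bases lie 207, 204 and 2 bases before the start, so both windows hold the same element, which begins 104 bases before the start. The next sequence is that of Hsph1, which stands for the HSP110 member whose smaller rise is described below. Its window is chr5:149636337-149636586 on the minus strand, and its element begins 33 bases before the start.

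Hsph1: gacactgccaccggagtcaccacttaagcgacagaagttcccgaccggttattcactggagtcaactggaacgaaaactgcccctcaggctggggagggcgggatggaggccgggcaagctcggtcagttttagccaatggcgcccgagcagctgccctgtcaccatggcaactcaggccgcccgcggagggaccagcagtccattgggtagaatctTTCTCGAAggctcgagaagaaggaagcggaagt

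A longer element of 3 units, GAANNTTCNNGAA or TTCNNGAANNTTC, was found for Hspd1 and Hspe1. These genes lie head to head on chromosome 1, transcribed away from each other, and a run of 18 bases at chr1:55088059-55088076 lies between the Hspe1 start and the Hspd1 start 216 bases away. It falls in the windows of both, and is given on the Hspe1 strand. The run holds 2 overlapping matches of the 3-unit form, so it is longer than a single match. A second annotated Hspd1 start, 95 bases past the Hspe1 start, has no match in its window.

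Hspe1: TTCTAGAACCTTCCGGAA

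Both strands were searched, and every 3-unit match also counts as 2-unit matches. Of the 7 genes, 2 had the 3-unit form in at least 1 window, against 0.466% of all 32851 promoter windows. These are Hspd1 and Hspe1, which share a single run. The 2-unit form was found in 6 of 7 genes, against 12.8% of all windows, and some genes have several windows. That count includes the shared run and the near-identical windows of Hspa1a and Hspa1b, so it does not hold independent sites. Dnajb1 had no match in either window. CCAAT (or ATTGG) was found in 5 of 7 genes, against 33.8% of all windows, and TATAAA (or TTTATA) in 0 of 7, against 12.4%. These are matches of letters, and no binding was measured.

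The cells carried the markers of their label: all 5 named CD8 T cell genes lay above log2 5 on every array. Array medians lay between 2.97 and 3.08, and the 2 arrays of a group correlated across genes at r = 0.975 (naive) or 0.991 (RIP-OVAhi and OCS/LPS alike). The arrays numbered 1 and those numbered 2 differed in sex-linked transcripts: Xist read 2.67 to 2.74 on the former 4 and 12.73 to 13.01 on the latter 3.

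Hspa1a and Hspa1b, which encode the stress-inducible HSP70, were highest in the cells from RIP-OVAhi hosts. Hspa1b lay at 5.69 and 3.77 in the naive replicates 1 and 2, at 12.38 and 13.28 in RIP-OVAhi, at 10.67 and 7.84 in OCS/LPS and at 7.78 in Rag, all on the log2 scale. The RIP-OVAhi arrays stood above all others, the OCS/LPS arrays above naive, and the Rag array beside OCS/LPS replicate 2. Hspa1a lay at 2.02 and 2.03 (naive), 9.18 and 10.94 (RIP-OVAhi), 7.18 and 3.22 (OCS/LPS) and 2.36 (Rag). Only the RIP-OVAhi arrays and OCS/LPS replicate 1 exceeded log2 5 for Hspa1a, so its other values are near background and their differences have no fixed size. Hspa1a thus passed the filter only because it was high on those arrays.

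**Figure D1:**
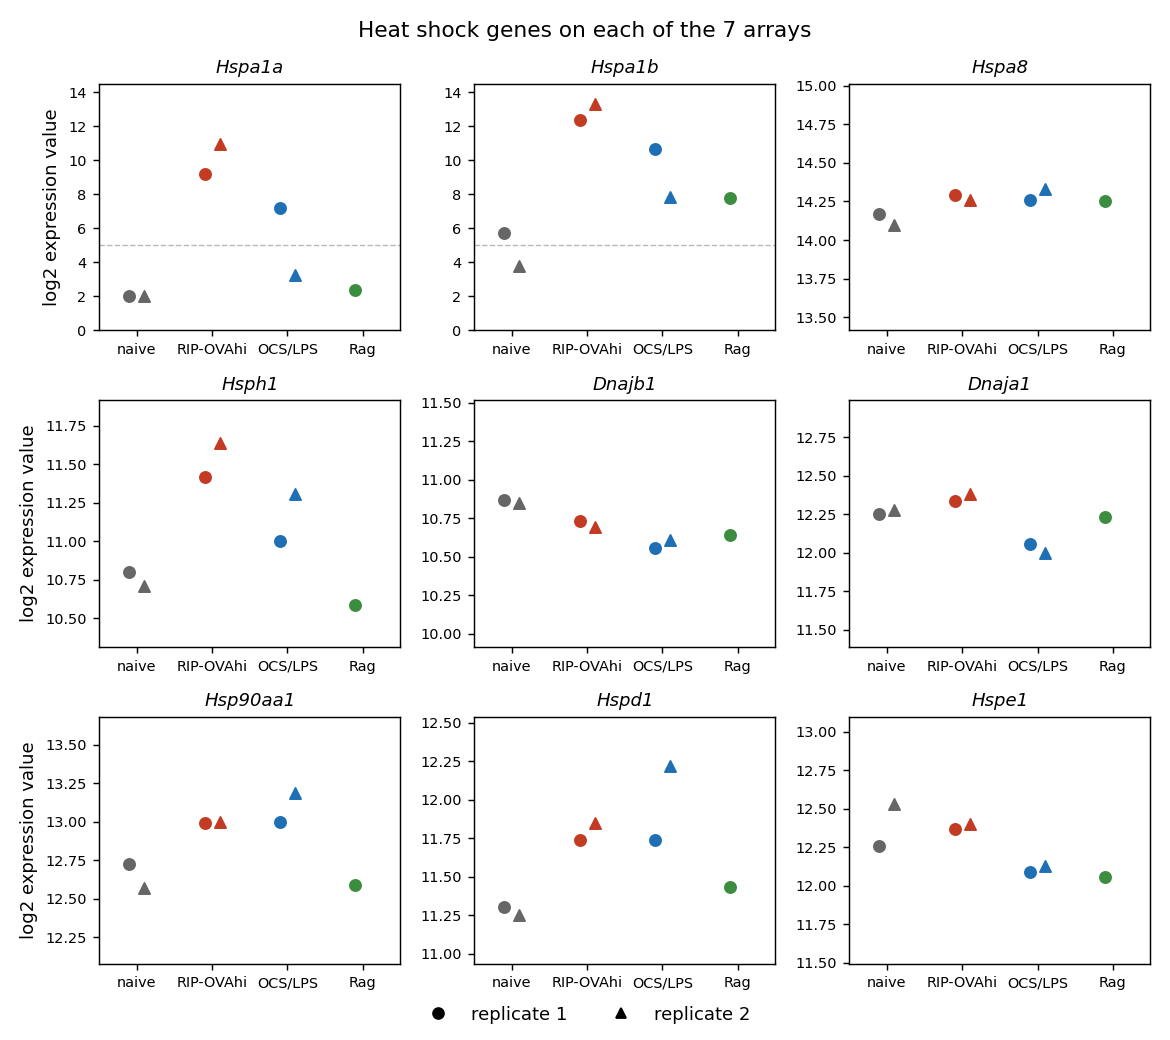
Log2 expression values (vertical axes) of the 9 heat shock genes on each array by group (horizontal axes); circles are replicate 1 and triangles replicate 2. The Hspa1a and Hspa1b panels start at 0 and have a dashed line at log2 5 while the other panels each span 1.6 log2 units around their own centre; both RIP-OVAhi arrays stand highest for Hspa1a, Hspa1b, Hsph1 and Dnaja1.

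Setting RIP-OVAhi beside naive cells asks what cells on the way to deletion express. Hspa1b rose by 8.09 on the log2 scale (SE 1.03, limma adjusted p = 0.00338, n = 2 per group), and its call was kept under all 16 alternative settings, with adjusted p from 0.00215 to 0.0462. Hspa1a rose by 8.03 (SE 1.26, adjusted p = 0.0067). With values under log2 5 set to 5, the Hspa1a rise was 5.06 (SE 0.83, adjusted p = 0.00853) and that of Hspa1b 7.48 (SE 0.90, adjusted p = 0.00306). The call of Hspa1a held under 14 of 16 alternatives. It was lost with no filter on low values (adjusted p = 0.062) and without RIP-OVAhi replicate 2 (difference 7.15). The mRNA sequences of these genes were not compared here. Signal from either may reach the other's probe sets, which was not tested, so the pair is not taken as independent results.

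In OCS/LPS against naive, a comparison of primed with resting cells from the same tissue, Hspa1b rose by 4.52 (SE 1.03, adjusted p = 0.0209). That call held under 10 of 16 alternatives: it was lost with no filter on low values (adjusted p = 0.131), without OCS/LPS replicate 1 (3.11, adjusted p = 0.0886), without naive replicate 2 (3.56, adjusted p = 0.0759) and without either RIP-OVAhi array, which lend their spread to the fit, or without both (adjusted p = 0.059). Hspa1a differed by 3.17 (SE 1.26) and was not called (adjusted p = 0.105); the value was 5.15 without OCS/LPS replicate 2 (adjusted p = 0.023) and 1.20 without replicate 1. The direct comparison of RIP-OVAhi with OCS/LPS gave 3.57 for Hspa1b (SE 1.03, 95% interval 1.04 to 6.11, adjusted p = 0.169) and 4.86 for Hspa1a (SE 1.26, 95% interval 1.76 to 7.95, adjusted p = 0.138). Both RIP-OVAhi arrays lay above both OCS/LPS arrays for each gene, and the difference did not pass the test. It ran from 2.16 to 4.99 for Hspa1b and from 2.88 to 6.83 for Hspa1a when single arrays were left out.

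All 4 probe sets of the pair placed the arrays in nearly the same order. Probe set 1427127_x_at of Hspa1b read 5.05 and 3.80 (naive), 11.87 and 12.75 (RIP-OVAhi), 10.41 and 7.44 (OCS/LPS) and 7.35 (Rag). Probe set 1427126_at of Hspa1b read 3.71 and 2.66, 11.09 and 12.58, 9.26 and 6.44, and 6.02 in the same order. Tested on their own among 13853 probe sets, these rose against naive by 7.88 (SE 0.98, adjusted p = 0.00363) and 8.65 (SE 0.99, adjusted p = 0.00278) in RIP-OVAhi, where 16.4% of probe sets were called higher. In OCS/LPS they rose by 4.50 (SE 0.98, adjusted p = 0.0193) and 4.67 (SE 0.99, adjusted p = 0.0177), where 19.6% were called higher.

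The replicates of Hspa1a and Hspa1b differed by more than those of most genes in RIP-OVAhi and OCS/LPS. More than 2-fold gaps were found for 1 of the 9 genes in naive (Hspa1b), 1 in RIP-OVAhi (Hspa1a) and 2 in OCS/LPS, against 4.23%, 0.341% and 0.378% of all tested genes. In OCS/LPS, replicate 2 minus replicate 1 was -2.83 for Hspa1b (7.12-fold), the 6th largest gap among 8203 genes, whose median gap was 0.12. The Hspa1a value of OCS/LPS replicate 2 was below log2 5, so its measured gap of -3.95 has no fixed size; with values under 5 set to 5 it was -2.18. In RIP-OVAhi the order was the opposite, with replicate 2 above replicate 1 by 1.76 for Hspa1a (the 6th largest gap) and 0.89 for Hspa1b (the 38th). In naive cells the gap of Hspa1b was -1.92, and -0.69 with the floor, since replicate 2 was below log2 5. Among the brightest probe sets of the other 7 genes the largest gap was 0.48, for Hspd1 in OCS/LPS. Dimmer probe sets differed more, with gaps of -1.25 for Hspa8 (1431182_at) and -0.77 for Hsph1 (1423566_a_at) in naive.

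**Figure D2:**
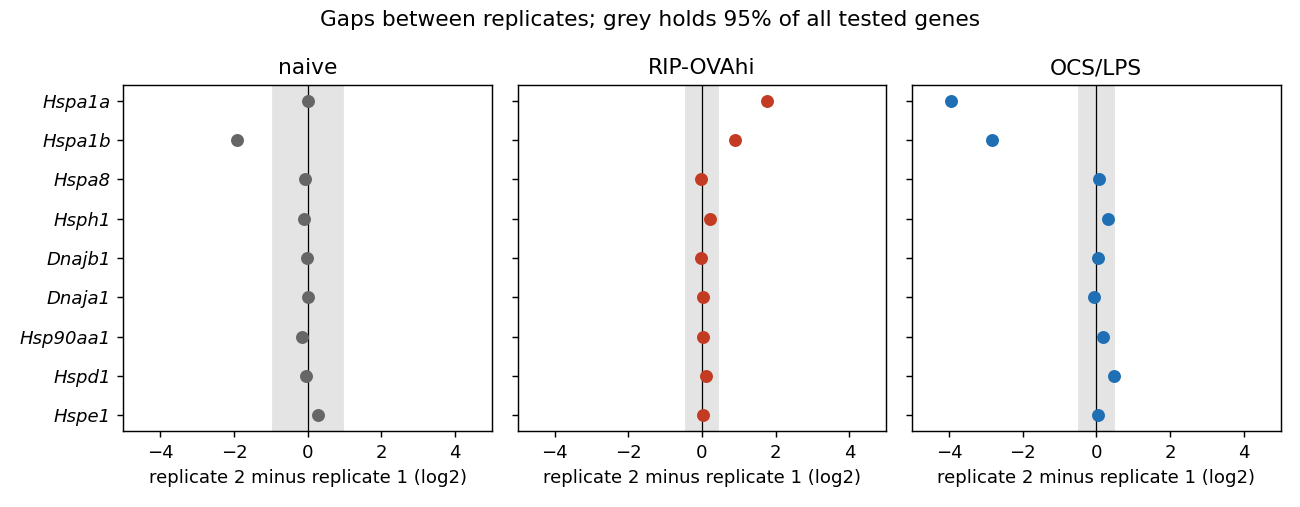
Log2 difference of replicate 2 minus replicate 1 (horizontal axes) for each heat shock gene (vertical axis) in the 3 groups with 2 arrays; the grey band holds the gaps of 95% of all tested genes, up to 0.95 (naive), 0.44 (RIP-OVAhi) and 0.48 (OCS/LPS). Hspa1a and Hspa1b fall outside the band in RIP-OVAhi and OCS/LPS, on opposite sides, and Hspa1b also in naive. There its replicate 2 was below log2 5, and with values under 5 set to 5 the gap was -0.69.

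Immediate early genes, which respond within minutes to receptor signals and to handling, were set beside these values. Fos, a subunit of the factor AP-1, lay at 11.48 and 11.19 (naive), 11.96 and 12.85 (RIP-OVAhi), 11.03 and 10.23 (OCS/LPS) and 6.21 (Rag). Its partner Jun lay at 8.02 and 6.76, 9.05 and 10.10, 7.60 and 7.32, and 5.09 in the same order. For both genes the higher replicate of each group was also the higher one for Hspa1b. This held for 5 of the 15 tested genes of the list (Fos, Jun, Egr1, Btg2 and Klf6). Some of these gaps were tiny, at 0.02 for Egr1 and 0.04 for Btg2 in RIP-OVAhi and -0.04 for Klf6 in OCS/LPS. The share of all tested genes with this order was not counted, so nothing particular to the list is read from it. Dusp1, a phosphatase that switches off MAP kinases, was higher in replicate 2 of every group, at 9.07 in RIP-OVAhi replicate 2 against 8.02 in replicate 1. Fos, Dusp1 and Egr1 were picked for display after their values were seen. Rag had lower Fos than naive (-5.12, SE 0.46, adjusted p = 0.00566). The Rag value of Hspa1b was higher than both naive values, a difference that was not called. Both rest on 1 Rag array, taken at 5 days. In RIP-OVAhi against naive the list had 3 of 15 genes higher and 2 lower, where 18.1% and 11.6% of all tested genes were called, led by Jun (2.18, SE 0.49, adjusted p = 0.0224), Nr4a1 (1.74, SE 0.19) and Socs3 (-4.05, SE 0.42); in OCS/LPS it had 0 higher and 3 lower, where 20.5% and 12.3% were called. Whether handling or signalling had a part in the Hspa1a and Hspa1b values was not tested.

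**Figure D3:**
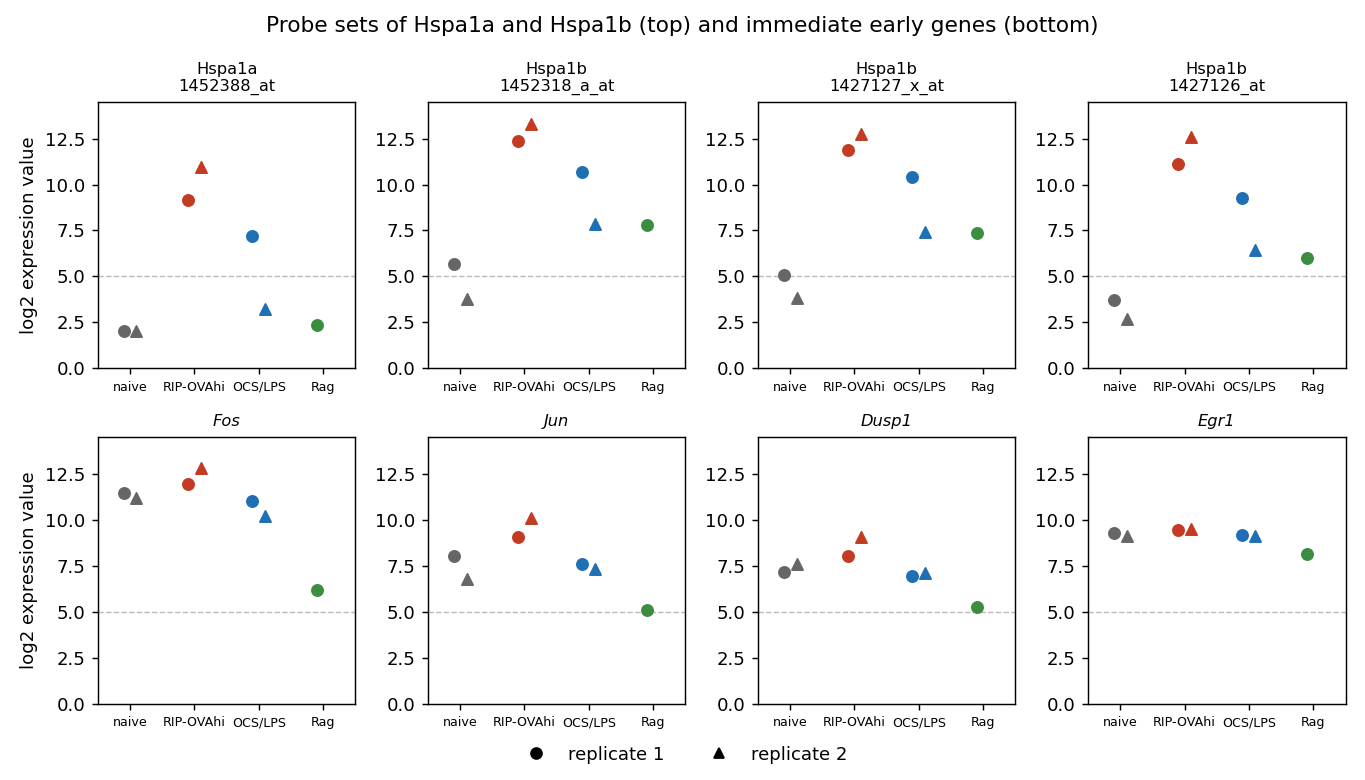
Log2 expression values (vertical axes, starting at 0) of the 4 probe sets of Hspa1a and Hspa1b (upper row) and of 4 immediate early genes (lower row) by group; circles are replicate 1, triangles replicate 2, and the dashed line is log2 5. Replicate 2 is the higher in RIP-OVAhi and the lower in OCS/LPS for all 4 heat shock probe sets and for Fos and Jun.

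Markers of other cell types differed between the arrays. Of 5 MHC class II and dendritic cell genes, 0 reached log2 5 in either RIP-OVAhi array, against 4 and 3 in naive, 5 and 5 in OCS/LPS and 4 in Rag; the list's mean was 3.07 and 3.36 in RIP-OVAhi and 4.84 to 6.18 elsewhere. Of 8 myeloid genes, 0 reached it in RIP-OVAhi and 2 to 4 on the other arrays, and no pancreas gene reached it on any array. Of 5 B cell genes, 2 reached it in both RIP-OVAhi arrays, against 1 and 2 in naive, 2 and 3 in OCS/LPS and 1 in Rag. The mean of these genes was 4.46 and 4.72 in RIP-OVAhi, above naive (4.01 and 4.37) and Rag (3.80) and below OCS/LPS (5.10 and 5.56). The mean of 4 plasma cell genes was 4.40 and 4.68 in RIP-OVAhi, 4.30 in Rag and 6.43 to 7.23 elsewhere, and that of 4 stromal genes was 3.40 and 3.43 in RIP-OVAhi and 3.17 to 3.35 elsewhere. Neutrophil, erythroid, platelet and NK genes were all below log2 5 in RIP-OVAhi, with at most 1 gene of each list above it on any other array. The part of these cells in the results was not tested. In such bulk samples fewer cells of a type and less RNA per cell cannot be told apart. The 3' signal of Gapdh exceeded its 5' signal, a gap that widens with RNA breakdown and amplification, by 2.59 and 2.43 for the naive arrays, 2.08 and 2.03 for RIP-OVAhi, 1.85 and 1.89 for OCS/LPS and 2.21 for Rag (log2). Its part in the results was not tested.

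Hspa8, the HSP70 that is made at all times, was near-constant by its brightest probe set, which lay between 14.10 and 14.33 on all 7 arrays and was called in no comparison. The differences were 0.14 (SE 0.11, 95% interval -0.14 to 0.42, adjusted p = 0.391) in RIP-OVAhi and 0.16 (SE 0.11, 95% interval -0.12 to 0.44, adjusted p = 0.32) in OCS/LPS against naive. At values this high differences can be compressed, which was not tested. Next in brightness, 1420622_a_at was 0.12 higher in RIP-OVAhi than in naive (SE 0.15, adjusted p = 0.598 among probe sets). The probe set 1420623_x_at was 0.58 higher (SE 0.17, adjusted p = 0.0561). A dimmer probe set, 1431182_at, varied more, from 6.41 in Rag to 9.63 in RIP-OVAhi replicate 2, with 8.71 and 7.46 in naive, and was 1.29 higher in RIP-OVAhi than in naive (SE 0.42, adjusted p = 0.0692). Against Rag it was called higher in RIP-OVAhi (2.97, SE 0.51, adjusted p = 0.018) and OCS/LPS (2.30, SE 0.51, adjusted p = 0.0361), where 8.32% and 9.35% of probe sets were called higher (6.33% and 6.41% lower). With the mean of all its probe sets, Hspa8 was called in RIP-OVAhi against Rag (0.85, SE 0.21, adjusted p = 0.0462), so the probe sets of this gene disagreed.

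Hsph1, the HSP110 exchange factor of HSP70, was higher in RIP-OVAhi by a smaller amount. It lay at 10.80 and 10.71 (naive), 11.42 and 11.64 (RIP-OVAhi), 11.00 and 11.31 (OCS/LPS) and 10.59 (Rag). All 4 arrays of cells that had met antigen stood above both naive arrays and the Rag array. The rise from naive to RIP-OVAhi was 1.72-fold (log2 0.78, SE 0.16, adjusted p = 0.0158), and its call held under 13 of 16 alternatives. It was lost with no filter on low values (adjusted p = 0.0541) and without RIP-OVAhi replicate 1 (0.89) or replicate 2 (0.67). A second probe set rose as well (1.19, SE 0.31, adjusted p = 0.0369 among probe sets). In OCS/LPS Hsph1 was 0.41 above naive (SE 0.16, adjusted p = 0.101), and RIP-OVAhi exceeded OCS/LPS by 0.37 (SE 0.16, 95% interval -0.01 to 0.76, adjusted p = 0.322).

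The J proteins hand clients to HSP70, and neither was called in any comparison by its brightest probe set. Dnajb1, itself a classical heat shock gene and the J partner of the inducible HSP70, lay at 10.87 and 10.85 (naive), 10.73 and 10.69 (RIP-OVAhi), 10.56 and 10.61 (OCS/LPS) and 10.64 (Rag). Naive cells thus had the highest values, and the difference from RIP-OVAhi was -0.15 (SE 0.11, 95% interval -0.42 to 0.12, adjusted p = 0.359). In OCS/LPS Dnajb1 was -0.28 from naive (SE 0.11, adjusted p = 0.11), a fall that was called when the arrays were centred on their medians (-0.42, adjusted p = 0.038). Its other probe set read 7.95 and 7.94 (naive), 7.91 and 8.38 (RIP-OVAhi), 7.94 and 7.98 (OCS/LPS) and 7.60 (Rag), so the probe sets did not share the order.

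Dnaja1 lay at 12.25 and 12.28 (naive), 12.34 and 12.38 (RIP-OVAhi), 12.06 and 12.00 (OCS/LPS) and 12.23 (Rag). RIP-OVAhi arrays were the highest and OCS/LPS arrays the lowest, with a difference of 0.33 between these groups (SE 0.11, adjusted p = 0.231). Against naive the differences were 0.09 (SE 0.11, adjusted p = 0.576; -0.03 after centring) in RIP-OVAhi and -0.24 (SE 0.11, adjusted p = 0.161) in OCS/LPS. The probe set 1460179_at gave a larger value in RIP-OVAhi, from 10.23 and 10.11 in naive to 10.83 and 10.81 (0.65, SE 0.12, adjusted p = 0.0148 among probe sets). It read 10.37 and 10.46 in OCS/LPS and 10.17 in Rag and was also called higher in RIP-OVAhi than in Rag (0.65, SE 0.15, adjusted p = 0.0437); the probe sets of the gene therefore disagreed.

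Hsp90aa1, the stress-responsive form of cytosolic HSP90, lay at 12.73 and 12.57 (naive), 12.99 and 13.00 (RIP-OVAhi), 13.00 and 13.19 (OCS/LPS) and 12.59 (Rag). The 4 arrays of antigen-stimulated cells stood above the other 3. It rose 1.36-fold in OCS/LPS against naive (log2 0.44, SE 0.13, adjusted p = 0.0467), a call that held under 5 of 16 alternatives; it was 0.30 after centring (adjusted p = 0.139) and 0.35 without OCS/LPS replicate 2 (adjusted p = 0.229). With the replicate number as a block the call was lost too (adjusted p = 0.0752). In RIP-OVAhi the difference from naive was 0.35 (SE 0.13, adjusted p = 0.0993). The probe set 1426645_at gave 0.87 in OCS/LPS (SE 0.15, adjusted p = 0.00881 among probe sets), while 1437497_a_at gave 0.20 (SE 0.19, adjusted p = 0.443). A further pair of Hsp90aa1 probe sets read between 1.69 and 3.16 on all arrays, near background.

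The mitochondrial chaperonin pair, whose promoter windows overlap, differed in its calls. Hspd1, the chamber protein HSP60, lay at 11.30 and 11.25 (naive), 11.74 and 11.85 (RIP-OVAhi), 11.74 and 12.22 (OCS/LPS) and 11.43 (Rag). Both antigen-stimulated groups stood above naive and Rag without overlap. It rose 1.64-fold in OCS/LPS (log2 0.71, SE 0.18, adjusted p = 0.0292). The call held under 9 of 16 alternatives and was lost with no filter (adjusted p = 0.102), without OCS/LPS replicate 2 (0.47, adjusted p = 0.127), either naive array (adjusted p = 0.0585 and 0.0656) and without either RIP-OVAhi array or with only the arrays of these 2 groups (adjusted p = 0.0748). In RIP-OVAhi it was 0.52 above naive (SE 0.18, adjusted p = 0.0806). Hspe1, the lid protein HSP10, lay at 12.26 and 12.53 (naive), 12.37 and 12.40 (RIP-OVAhi), 12.09 and 12.13 (OCS/LPS) and 12.06 (Rag). Its difference from naive was -0.01 in RIP-OVAhi (SE 0.14, adjusted p = 0.953) and -0.29 in OCS/LPS (SE 0.14, adjusted p = 0.162), where both arrays lay below naive; without naive replicate 1 the latter was called (-0.42, adjusted p = 0.0288).

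**Figure D4:**
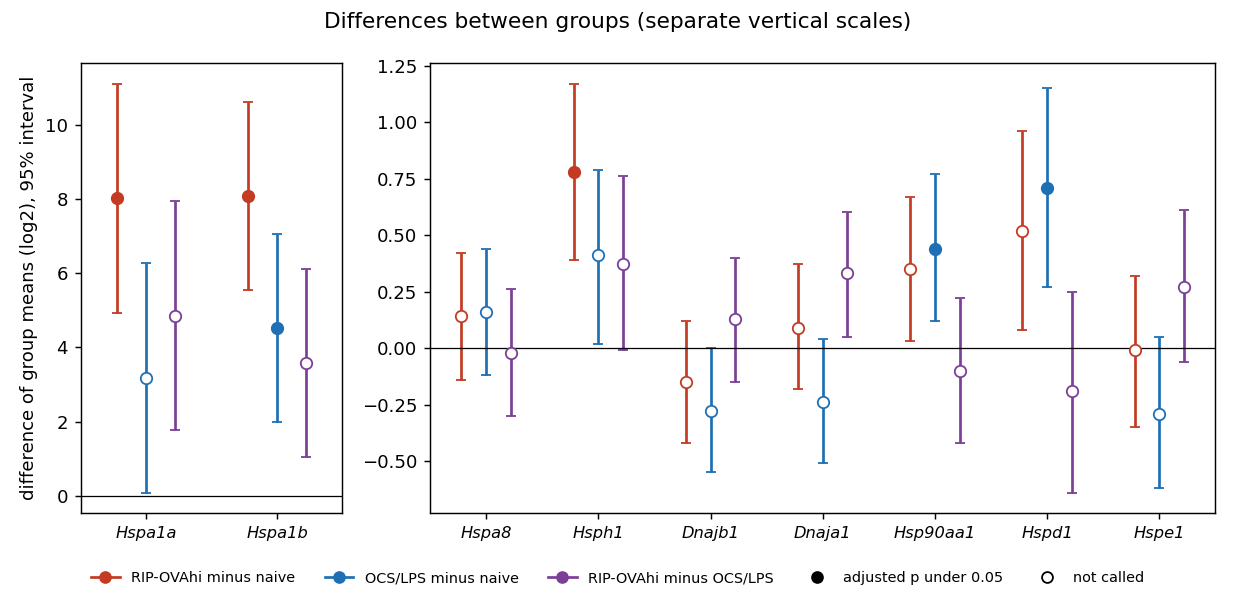
Differences of group means (vertical axes, log2) with 95% intervals that are not adjusted for the number of genes, for each heat shock gene in 3 comparisons; filled points passed limma's adjusted p of 0.05 and open points did not. Hspa1a and Hspa1b have their own scale on the left; RIP-OVAhi minus OCS/LPS (purple) has no filled point.

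Over the 9 genes, limma called 3 higher (Hspa1a, Hspa1b, Hsph1) and 0 lower in RIP-OVAhi against naive, where 18.1% of all tested genes were called higher and 11.6% lower (29.6% in all); at an unadjusted p under 0.05 there were 5 and 0. In OCS/LPS against naive limma called 3 higher (Hspa1b, Hsp90aa1, Hspd1) and 0 lower, against 20.5% and 12.3% of all genes (32.9% in all), and 5 and 1 at the unadjusted level. With 9 genes, nothing particular to them is read from these counts, and the comparisons share the naive arrays. Hspa1a passed the filter only through arrays of antigen-stimulated cells, so its calls partly follow from the filter. Hspa1a and Hspa1b are also not taken as independent. Centring every array on its median shifted the differences by -0.12 and -0.15 and moved the split of all called genes from 1481 higher and 948 lower to 1192 and 1296 in RIP-OVAhi, and from 1685 and 1013 to 1340 and 1461 in OCS/LPS. The median difference was 0.35 in RIP-OVAhi and 0.41 in OCS/LPS, beside 0.06 and 0.08 for all tested genes. In RIP-OVAhi 7 genes lay wholly above naive and 1 wholly below, against 37% and 29% of all genes; in OCS/LPS it was 6 and 3, against 39.4% and 28.6%. Both RIP-OVAhi arrays stood above all 5 others for 4 genes, against 9.58% of all genes.

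Between RIP-OVAhi and OCS/LPS limma called 0 of the 9 genes, with 3 at an unadjusted p under 0.05 (Hspa1a, Hspa1b and Dnaja1, each higher in RIP-OVAhi); of all genes 1.61% were called higher and 1.3% lower (2.91% in all). The arrays of 6 genes lay wholly higher in RIP-OVAhi and those of 0 wholly lower, against 23.5% and 34% of all genes.

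The single Rag array, taken at 5 days in place of 60 h, gave no call against naive. Hspa1b was 3.04 above naive (SE 1.26, adjusted p = 0.284) and Hspa1a 0.34 (SE 1.54, adjusted p = 0.938), and limma called 0 of 9 genes, with 0 at an unadjusted p under 0.05, against 2.15% of all genes called higher and 0.585% lower (2.73% in all). RIP-OVAhi exceeded Rag in 3 genes and was below it in 0, against 9.84% of all genes called higher and 6.9% lower (16.7% in all): Hspa1a by 7.69 (SE 1.54, adjusted p = 0.0242), Hspa1b by 5.05 (SE 1.26, adjusted p = 0.0457) and Hsph1 by 0.94 (SE 0.19, adjusted p = 0.0259). Each of the 3 calls was lost without either RIP-OVAhi array, with adjusted p of up to 0.142, 0.211 and 0.145, and that of Hsph1 also without either OCS/LPS array (0.0513) or with the replicate block (0.0508). OCS/LPS against Rag gave 0 calls among the 9 genes, with 3 at an unadjusted p under 0.05, against 11.2% of all genes called higher and 6.9% lower (18.1% in all). These values assume that the Rag array varies like the others.

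The counts for other chaperone genes stand beside the shares of all tested genes called, which were 18.1% higher and 11.6% lower in RIP-OVAhi and 20.5% and 12.3% in OCS/LPS against naive. With lists of this size nothing particular to a list is read from its count. Of 7 tested relatives of HSP70 and HSP110, 2 rose and 1 fell in RIP-OVAhi against naive, and 2 rose and 0 fell in OCS/LPS. Hspa4l, an HSP110 relative, rose from 3.78, near background, by 3.28 (SE 0.19, adjusted p = 0.000166) in RIP-OVAhi and by 2.50 (SE 0.19, adjusted p = 4e-04) in OCS/LPS. Hspa13, a microsomal HSP70 relative, rose by 1.01 (SE 0.13) and 0.52 (SE 0.13). Hspa9, the HSP70 of mitochondria, fell by 0.58 in RIP-OVAhi (SE 0.16, adjusted p = 0.0458). Of 21 other J proteins 2 rose and 1 fell in RIP-OVAhi, and 3 rose and 2 fell in OCS/LPS. The histone chaperone Dnajc9 rose by 0.57 (SE 0.13) and 0.74 (SE 0.13), Dnajb11 of the endoplasmic reticulum by 0.73 (SE 0.12) and 0.71 (SE 0.12), and Dnajb9 of the same compartment fell by 0.88 (SE 0.15) and 1.12 (SE 0.15).

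Of 15 HSP90 relatives and co-chaperones, 4 rose and 0 fell in RIP-OVAhi, with a median of 0.34, and 7 rose and 1 fell in OCS/LPS, with a median of 0.45. The shares of all tested genes were 18.1% and 11.6%, and 20.5% and 12.3%. Chordc1, a co-chaperone induced by heat, rose by 0.76 (SE 0.13, adjusted p = 0.00868) in RIP-OVAhi and by 0.60 (SE 0.13, adjusted p = 0.0169) in OCS/LPS. Pih1d1, which links HSP90 to the R2TP complex, rose by 0.63 (SE 0.15) and 0.74 (SE 0.15), and Fkbp8 by 0.58 (SE 0.16) and 0.78 (SE 0.16). Fkbp5, a glucocorticoid-induced partner of HSP90, lay at 8.27 and 8.22 (naive), 8.65 and 8.63 (RIP-OVAhi), 9.62 and 9.88 (OCS/LPS) and 8.73 (Rag). It rose by 1.50 in OCS/LPS (SE 0.13, adjusted p = 0.000736) and was the single called gene of this list between RIP-OVAhi and OCS/LPS (-1.11, SE 0.13, adjusted p = 0.0159).

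Of 10 co-chaperones that exchange nucleotides or hold clients on HSP70, 1 rose and 2 fell in RIP-OVAhi and 0 rose and 1 fell in OCS/LPS, against the same shares of all genes (18.1% and 11.6%, 20.5% and 12.3%); St13, the HSP70-interacting protein Hip, was 0.55 higher in RIP-OVAhi (SE 0.15). None of the 14 subunits of TRiC and prefoldin, the chaperones of actin and tubulin, was called in RIP-OVAhi by limma (1 at an unadjusted p under 0.05), and 2 rose in OCS/LPS, Vbp1 by 0.56 (SE 0.16) and Tcp1 by 0.42 (SE 0.12). Of 11 mitochondrial chaperones and proteases 0 rose and 1 fell in RIP-OVAhi (Hspa9, counted above), and 1 rose in OCS/LPS, the disaggregase Clpb by 0.93 (SE 0.24). The small heat shock genes Hspb1, Hspb6, Hspb8 and Cryab stayed near background on every array, at 3.86 or less. Bag3, Hmox1 and Serpinh1, which HSF1 or oxidative stress can induce, stayed at 3.34, 3.69 and 3.43 or less. Hspb11, the remaining tested gene of that list, was called in neither comparison with naive.

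**Figure D5:**
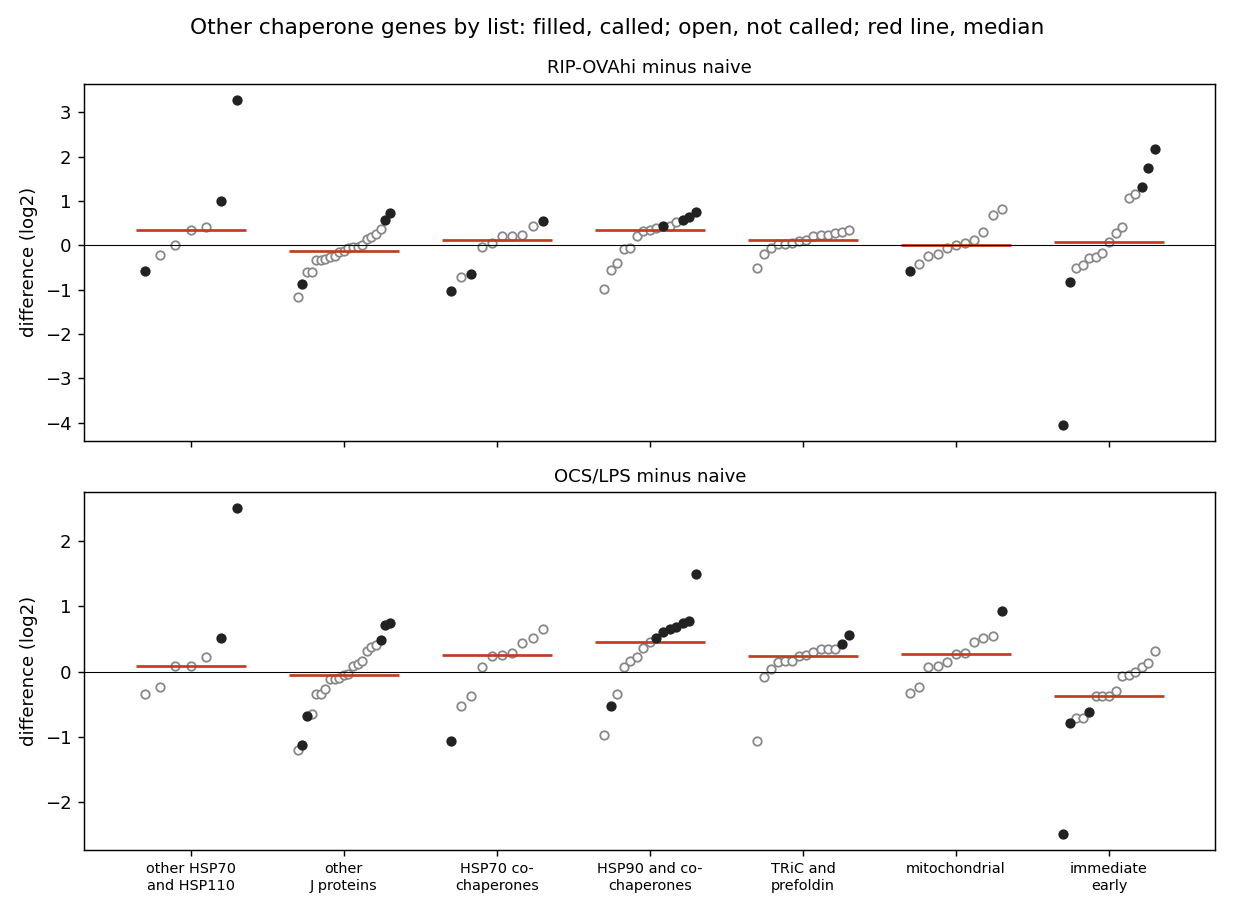
Log2 differences (vertical axes) of the tested genes of 7 lists, sorted within each list, for RIP-OVAhi minus naive (upper) and OCS/LPS minus naive (lower); filled points passed limma's adjusted p of 0.05, open points did not, and red lines are list medians. The HSP90 list has 4 and 7 filled points above 0, and Hspa4l is the highest point of the HSP70 list in both panels.

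The genes whose values over the 7 arrays were most like those of 3 members were listed by Pearson's r, among tested genes with an SD of at least 0.5. For Hspa1b they were 2810002D19Rik (0.971), Ppfibp1 (0.966) and Tox2 (0.963) of 1684 genes. For Hsp90aa1 they were Mtbp (0.990), Ctc1 (0.983) and Orc1 (0.982), and for Hspd1 they were Hk2 (0.978), Ehd4 (0.976) and Mpp6 (0.974). With 7 arrays in 4 groups these values mainly describe the order of the groups. None of the 3 genes listed for Hspa1b had its gap between OCS/LPS replicates: Tox2 read 5.12 on both arrays, 2810002D19Rik 8.03 and 7.89, and Ppfibp1 5.66 and 5.25.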

How the data were processed

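Per the submitters' processing notes, the authors made the deposited log2 expression values with GCRMA, which corrects background, normalizes quantiles and summarises probe sets over all arrays; the version and other steps are not given in the sources used here. Quantile normalization hides any shift that most genes have in common. Of 45101 probe sets, 34958 had 1 gene symbol in the platform annotation, 932 several and 9211 none. Of several probe sets for a gene, the one with the highest mean over the arrays was used. The 7 arrays entered a single linear model of group means (limma 3.58.1, R 4.3.3, 3 residual and 2.93 prior degrees of freedom), with two-sided p-values adjusted by Benjamini-Hochberg over 8203 genes and a threshold of 0.05. SE is the moderated standard error. The Rag array adds no degree of freedom. The labels do not say that pools were separate experiments. Sex-linked transcripts set the 2 arrays of each duplicated group apart, so these arrays did not repeat 1 RNA pool. The p-values rest on differences between such arrays, and how much of these was technical was not tested. Arrays have no read depth; their number limits the precision.

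Named genes were the 10 members, up to 3 called genes per list and comparison, and the 3 genes most like Hspa1b, Hsp90aa1 and Hspd1. The members and lists were chosen with earlier results of these data known. Alternatives changed the filter (none, or log2 6), the probe sets of a gene, centring, a floor at log2 5, the variance prior, the arrays fitted, the replicate block and single arrays left out. The procedure was tested on simulated data.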

Additional observations from a re-analysis of the deposited data

Results flagged for a closer look

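The genes here were picked from the 9 heat shock genes and the gene lists alone. Their change against naive cells differed between RIP-OVAhi and OCS/LPS in limma's direct comparison of the groups, where 239 of all tested genes were called. Fkbp5 was 1.11 lower in RIP-OVAhi (log2 difference -1.11, SE 0.13, adjusted p = 0.0159; 0.0101 to 0.195 over 15 alternatives, called in 10), with changes against naive of 0.40 and 1.50. Egr2 was 1.39 higher (SE 0.16, adjusted p = 0.0129; 0.00514 to 0.157, called in 10 of 15), with changes of 1.32 and -0.07. Nr4a1 was 1.61 higher (SE 0.19, adjusted p = 0.0149; 0.00958 to 0.17, called in 11 of 15), with changes of 1.74 and 0.13. Both arrays of each group showed the direction for each of the 3 genes, which nearly follows from how they were picked and adds no support. None of the 9 heat shock genes passed this comparison.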

How the results depend on the processing

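Over the alternatives, 741 of 810 differences of single heat shock genes kept their direction and their side of the threshold, 42 lost a call, 9 gained one and 18 changed sign or fell to 0. None of those 18 was called in either setting. Most of the 810 were uncalled in the main fit, so 741 says little about how stable the calls were. Calls against naive held under as few as 5 of 16 alternatives (Hsp90aa1 in OCS/LPS) and as many as 16 of 16 (Hspa1b in RIP-OVAhi). Those of RIP-OVAhi against Rag held under 11 (Hspa1a), 10 (Hspa1b) and 8 (Hsph1) of 14. Of 81 replicate gaps, 60 moved by no more than the standard deviation of the 2 values that form the gap. This limit grows with the gap itself, so the count is no independent check of stability. The naive gap of Hspa1b, for example, went from -1.92 to -0.69 with the floor and was still within it. With no filter on low values 1 heat shock gene was called higher in RIP-OVAhi against naive, 0 higher and 2 lower (Dnajb1 and Dnaja1) in OCS/LPS against naive, and 0 in RIP-OVAhi against Rag; 105 of all genes were called between RIP-OVAhi and OCS/LPS, against 239 with the filter. With every probe set on its own 3866 probe sets were called for RIP-OVAhi and 4490 for OCS/LPS against naive, in place of 2429 and 2698 genes. With only the arrays of the 2 groups compared, 1601 genes were called in RIP-OVAhi against naive, 416 between RIP-OVAhi and OCS/LPS, and 0 heat shock genes higher in OCS/LPS against naive. Centring gave 1 heat shock gene lower there (Dnajb1), and the variance prior with trend and robust fit gave 1 higher in OCS/LPS against Rag.

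Leaving out single arrays gave 1 to 3 heat shock genes higher in RIP-OVAhi against naive (1 without RIP-OVAhi replicate 2), 0 to 3 higher in OCS/LPS against naive (0 without naive replicate 2 or either RIP-OVAhi array) and 0 to 1 lower (Hspe1 without naive replicate 1). It gave 0 to 3 higher in RIP-OVAhi against Rag (0 without either RIP-OVAhi array) and 0 to 1 in OCS/LPS against Rag (Hsp90aa1 without either naive array). Counts over all genes ran from 807 (without RIP-OVAhi replicate 2) to 3281 (without naive replicate 2) for RIP-OVAhi and from 1018 (without OCS/LPS replicate 2) to 3646 (without naive replicate 2) for OCS/LPS against naive. They ran from 59 to 1622 for Rag against naive, 32 to 416 for RIP-OVAhi against OCS/LPS, 370 to 2549 for RIP-OVAhi against Rag and 397 to 2833 for OCS/LPS against Rag. The lone Rag array cannot be left out of its own comparisons.

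The changes of sign, none of them called, were as follows. In RIP-OVAhi against naive the difference of Dnajb1 was 0.02 with the mean of its probe sets, that of Dnaja1 -0.03 after centring, and that of Hspe1 -0.15 to 0.12 when arrays were left out. In Rag against naive Hspa1a was 0 with the floor and -0.03 with the replicate block, Hspa8 -0.32 with the mean of its probe sets, and Hsp90aa1 -0.14 to 0.02 when arrays were left out. In RIP-OVAhi against OCS/LPS Hspa8 was 0.21 with the mean of its probe sets, 0.01 after centring and -0.05 to 0.01 when arrays were left out, and Hspd1 was -0.43 to 0.05. After centring Hspa8 was -0.04 in both RIP-OVAhi and OCS/LPS against Rag. In OCS/LPS against Rag, Dnajb1 was 0.15 and Dnaja1 0.14 with the mean of their probe sets, and Hspe1 was -0.04 after centring and 0 with the replicate block. The cause was not tested for any of these.

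Replicate numbers are shared between groups, but each comparison has at most 2 of them, and nothing in the labels ties arrays of the same number together. Sex-linked transcripts did split the arrays by number, with Xist at 2.67 to 2.74 on those numbered 1 and 12.73 to 13.01 on those numbered 2. The lone Rag array is numbered 1. The replicate differences of 2 groups correlated across genes at 0.35 (naive and RIP-OVAhi), 0.13 (naive and OCS/LPS) and 0.32 (RIP-OVAhi and OCS/LPS). With the replicate block 3, 2 and 2 heat shock genes were called higher in RIP-OVAhi against naive, OCS/LPS against naive and RIP-OVAhi against Rag, and 2299, 2610 and 1043 of all genes in either direction. With 7 arrays and values near background, the size of the Hspa1a and Hspa1b differences is the least certain quantity reported.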
